A study of Mus musculus with 2 samples.

Results

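The nuclei described here are salivary gland macrophages rich in the transcripts Mrc1 and F13a1. They were taken from 2 single-nucleus RNA libraries as the barcodes with at least 1000 UMIs (unique molecular identifiers, each standing for 1 captured transcript molecule) and under 27% of UMIs from the 8 secretory genes Mucl2, Scgb1b27, Scgb2b27, Prol1, Smgc, Scgb2b26, Pip and Car6. Of those, barcodes with at least 8 UMIs of Mrc1 (ENSMUSG00000026712) and F13a1 (ENSMUSG00000039109) together were kept, so the members were chosen by the measured UMIs of these genes. This left 213 nuclei of 142799 barcodes in all, 112 in the Csf2+/- library and 101 in the Csf2-/- library. One library, called control, came from Csf2+/- mice, which carry 1 null allele of Csf2 and are not wild type, and the other, called null, from Csf2-/- mice. Csf2 encodes the cytokine GM-CSF. Both are given as C56BL/6, aged 20 days, with nuclei of the whole gland isolated without selecting a cell type. How many animals entered each library is not given. Since each genotype is 1 library, the genotypes could not be tested against each other, and every interval printed covers counting error at a level of 95% only.

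Mrc1 encodes the mannose receptor CD206, an endocytic lectin of tissue-resident macrophages. F13a1 encodes the A chain of coagulation factor XIII, a transglutaminase that macrophages also make. Together with the haemoglobin scavenger receptor CD163 they mark resident macrophages that, in many organs, lie along vessels and in connective tissue. Most tissue macrophages depend on CSF1R, the receptor of CSF1, while GM-CSF acts through a receptor of an alpha chain (Csf2ra) and a shared beta chain (Csf2rb) and is best known for maintaining alveolar macrophages. The series title concerns gland macrophages kept by GM-CSF, so the question here was how the nuclei rich in Mrc1 and F13a1 compare between a gland with 1 and a gland with no functional Csf2 allele.

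The promoters of 4 genes with high levels in these nuclei are printed so that the rule genes can be seen beside a receptor gene and a transcription factor gene. They span 250 bases before to 50 bases after the annotated start, read 5′ to 3′ on the strand of the gene, from RefSeq on GRCm38.p6, a build other than that of the counts. Capitals mark GAGGAA or, on the other strand, TTCCTC, a core that ETS-family factors such as PU.1 can bind.
Mrc1, chr2:14229164-14229463, plus strand: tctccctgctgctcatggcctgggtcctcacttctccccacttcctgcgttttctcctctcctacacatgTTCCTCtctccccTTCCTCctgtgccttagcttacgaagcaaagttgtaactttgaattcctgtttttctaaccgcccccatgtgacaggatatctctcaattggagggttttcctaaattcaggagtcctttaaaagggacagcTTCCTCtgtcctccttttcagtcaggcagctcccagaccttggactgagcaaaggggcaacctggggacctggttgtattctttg
F13a1, chr13:37050195-37050494, minus strand: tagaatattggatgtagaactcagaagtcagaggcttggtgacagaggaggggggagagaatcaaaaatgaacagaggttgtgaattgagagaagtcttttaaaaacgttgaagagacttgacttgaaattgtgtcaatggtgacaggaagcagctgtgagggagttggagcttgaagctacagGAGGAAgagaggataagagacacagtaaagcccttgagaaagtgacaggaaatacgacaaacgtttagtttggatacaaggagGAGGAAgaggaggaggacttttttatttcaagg
Rbpj, chr5:53590096-53590395, plus strand: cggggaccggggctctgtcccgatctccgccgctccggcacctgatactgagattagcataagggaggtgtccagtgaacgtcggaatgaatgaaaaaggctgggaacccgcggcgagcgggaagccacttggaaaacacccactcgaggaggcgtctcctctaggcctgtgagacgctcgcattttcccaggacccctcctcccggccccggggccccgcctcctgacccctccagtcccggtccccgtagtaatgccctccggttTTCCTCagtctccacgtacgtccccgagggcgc
Cd163, chr6:124304401-124304700, plus strand: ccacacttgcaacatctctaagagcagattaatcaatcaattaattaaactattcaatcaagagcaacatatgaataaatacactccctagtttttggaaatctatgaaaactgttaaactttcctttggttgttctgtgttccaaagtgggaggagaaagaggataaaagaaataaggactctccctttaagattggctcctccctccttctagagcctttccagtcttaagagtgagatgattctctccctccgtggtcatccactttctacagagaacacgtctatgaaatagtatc
The letters occurred 3 times in the window of Mrc1, 2 times in that of F13a1, 1 time in that of Rbpj and 0 times in that of Cd163. F13a1 and Rbpj each have another window in the table, which held the letters 1 time in each case and is not printed. Of the 15 genes named below as higher in these nuclei than in other macrophages, 13 had a promoter in the table, and 8 of those held the letters in at least 1 of their windows, as did 31.3% of 27025 genes (28.3% of 32851 windows). A match describes letters and not binding.

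Depth and mixing bear on each value. The control library had 68460 barcodes with 76002888 UMIs and the null library 74339 with 75630815. The rules on depth and secretory UMIs were passed by 8384 (43.2% of barcodes with at least 1000 UMIs) and 13096 (74.1%), with median depths of 2830.5 and 2010.5 UMIs. Csf2 itself gave 5 UMIs in the Csf2+/- library and 0 in the Csf2-/- library, and 0 in the Mrc1- and F13a1-rich nuclei of both. The libraries had 1367 barcode sequences in common, of which 23 passed both rules in both and 0 belonged to rich nuclei of both. No doublet caller was run.

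Rich nuclei had median depths of 2833 UMIs in the Csf2+/- library (lowest 1139, highest 43987) and 2095 UMIs in the Csf2-/- library (lowest 1016, highest 171879). The deepest null droplet alone held 40.0% of all UMIs of the null rich nuclei, with 2 of Mrc1 and 13 of F13a1, beside 205 UMIs of 7 epithelial and 100 of 7 fibroblast markers. The deepest control droplet held 10.6%, with 3 UMIs of Mrc1, 9 of F13a1 and 53 of epithelial markers. A sum over nuclei therefore rests in part on droplets that met the rule with few of its UMIs relative to their size, and the null sum more so. Counts of genes past a fold are given for all rich nuclei and for the limited set without the 2 droplets per library of over 10000 UMIs. That limit was chosen after seeing the data. Many values of single genes are given for the limited set only. The limited set had 110 control nuclei with 359392 UMIs and 99 null nuclei with 237025 UMIs. Secretory genes made up 13.7% of the UMIs of the median rich nucleus in the Csf2+/- library and 17.7% in the Csf2-/- library. If the barcodes under 1000 UMIs (36.7% and 45.4% secretory) stand for free RNA, that is, RNA in the fluid around the nuclei, it amounted to 35.8% and 34.7% of the summed UMIs of the limited set.

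**Figure D1:**
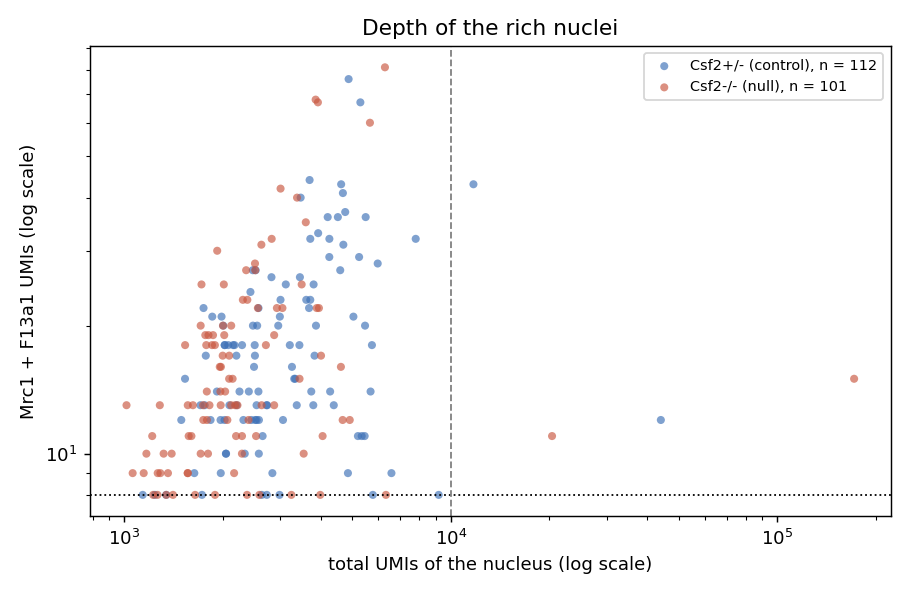
Total UMIs of each rich nucleus (x axis, log scale) against its Mrc1 plus F13a1 UMIs (y axis, log scale). Points are nuclei, 112 control and 101 null. The dotted line is the rule of 8 UMIs and the dashed line the limit of 10000 UMIs. Most nuclei lie between 1000 and 10000 UMIs, and 1 null droplet stands apart at 171879 UMIs with 15 UMIs of the rule genes.

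Mrc1 and F13a1 chose the nuclei, so their levels are a description. The rich nuclei of the control held 900 Mrc1 UMIs, with a median of 7 per nucleus (0 to 27), and those of the null library 573, with a median of 5 (0 to 24). They held 1277 F13a1 UMIs in the Csf2+/- library, with a median of 10 per nucleus (0 to 54), and 1218 in the Csf2-/- library, with a median of 9 (0 to 62). Nearly every nucleus had both transcripts: 2 control and 3 null nuclei had 0 Mrc1 UMIs, and 2 in each library had 0 F13a1 UMIs. The sum of both had a median of 17 in the Csf2+/- library and 13 in the Csf2-/- library, where nuclei were shallower. As a share of the UMIs of the nucleus it had medians of 0.603% and 0.711%. The rich nuclei held 63.5% (control) and 57.6% (null) of the Mrc1 UMIs of all passing barcodes, and 72.8% and 72.9% of their F13a1 UMIs. The threshold fell on no gap. Just outside it, 12 control and 12 null barcodes had a sum of 7, with 7 and 13 Cd163 UMIs, and just inside, 9 and 11 had a sum of 8, with 8 and 12 Cd163 UMIs.

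The balance between the rule genes rests on the UMIs that chose the nuclei and is likewise a description, with 1 library per genotype. F13a1 made up 58.7% (interval 56.6 to 60.7) of Mrc1 plus F13a1 UMIs in control rich nuclei and 68.0% (65.8 to 70.2) in null rich nuclei, which is 9.35 percentage points more. Per nucleus the median share of F13a1 was 55.8% in the Csf2+/- library and 70.0% in the Csf2-/- library, over the same full range of 0 to 100%, so the nuclei of the libraries overlapped throughout. F13a1 outnumbered Mrc1 in 68 of 112 control nuclei (60.7%) and 81 of 101 null nuclei (80.2%). Barcodes that the rule did not take were then examined. With a sum of 4 to 7, F13a1 made up 46.7% (41.2 to 52.4) of 323 UMIs in the Csf2+/- library and 56.8% (50.7 to 62.7) of 273 in the Csf2-/- library. In barcodes under 1000 UMIs it made up 49.7% (47.8 to 51.6) of 2797 and 56.3% (54.0 to 58.5) of 1845. In barcodes with a sum of 1 to 3 it was 48.5% (44.7 to 52.4) and 49.4% (45.3 to 53.5), and in the macrophages low in both genes, defined below, 31.4% (19.1 to 45.9) and 31.5% (19.5 to 45.5).

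**Figure D2:**
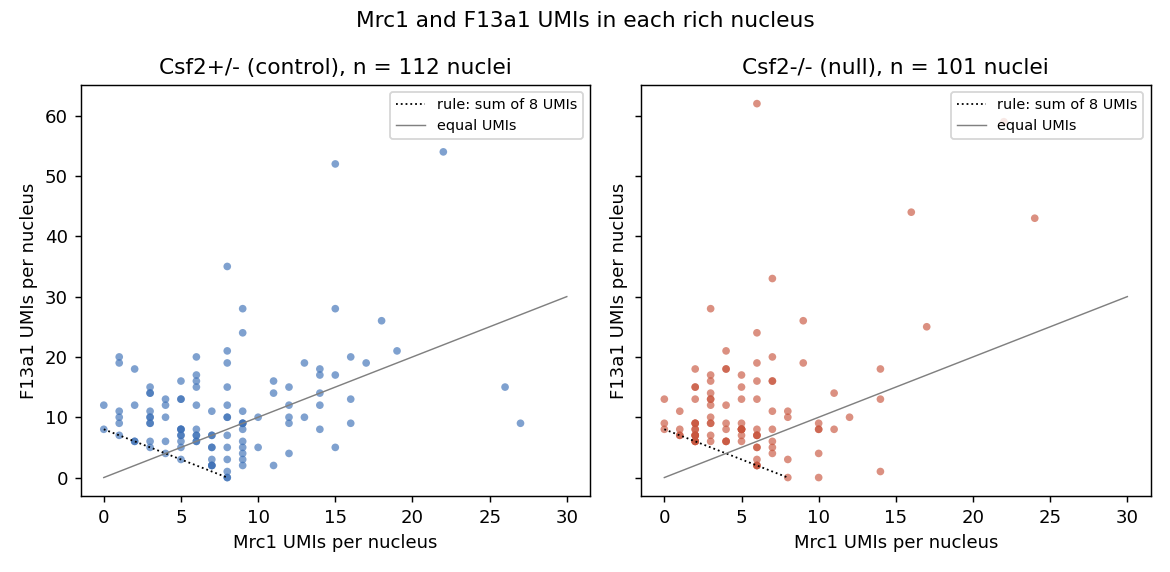
Mrc1 UMIs (x axis) and F13a1 UMIs (y axis) of each rich nucleus in the control (left, n = 112) and null (right, n = 101) library. The dotted line is the rule of a sum of 8 and the grey line marks equal numbers. In the null library 81 of 101 nuclei lie above the grey line, against 68 of 112 in the Csf2+/- library.

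How frequent the nuclei were depended on the denominator. Of passing barcodes they were 1.34% (1.10 to 1.61) in the Csf2+/- library and 0.771% (0.629 to 0.936) in the Csf2-/- library, a log2 ratio of null over control of -0.79 (-1.20 to -0.39). Of all barcodes with at least 1000 UMIs, whatever their secretory share, they were 0.577% (0.476 to 0.694) and 0.572% (0.466 to 0.694). Of all barcodes they were 0.164% and 0.136%, with a log2 ratio of -0.27 (-0.67 to 0.13). The numbers of nuclei themselves, 112 and 101, were close, while the share of barcodes that passed the secretory rule was 43.2% in one library and 74.1% in the other, which sets the denominator of the first ratio. Against the macrophages low in both genes, they were 112 of 185 (60.5%, 53.1 to 67.6) in the Csf2+/- library and 101 of 181 (55.8%, 48.2 to 63.2) in the Csf2-/- library, a log2 ratio of -0.12 (-0.52 to 0.28).

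The label was checked against marker genes other than the pair in the rule. In the limited set Cd163 stood at 609 CPM (the gene's part of all UMIs of the summed nuclei, in millionths) in the Csf2+/- library and 802 CPM in the Csf2-/- library, against 2.49 and 1.92 CPM in passing barcodes with at least 4 UMIs of epithelial markers (3099 and 3066 in number), which should lack it. Csf1r, the receptor that most macrophages need, stood at 420.2 and 375 CPM in rich nuclei. Colec12, a scavenger receptor of the collectin family listed as a marker, stood at 262 and 283 CPM, but passing barcodes with at least 4 UMIs of fibroblast markers had 584 and 485 CPM, and rich nuclei held only 2.99% and 2.90% of the Colec12 UMIs of passing barcodes. Colec12 thus did not set these nuclei apart from fibroblast-marked barcodes, whereas 65.1% and 64.7% of Cd163 UMIs lay in them.

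To compare shares of nuclei with a UMI at 1 depth, every nucleus was thinned to 1000 UMIs. Cd163 was then detected in 33.9% (25.2 to 43.5) of control and 48.5% (38.4 to 58.7) of null rich nuclei, and in 0.26% and 0.13% of the epithelial-marked barcodes, whose unthinned median depths were 3430.0 and 2500.0 UMIs. Stab1, which encodes the scavenger receptor stabilin-1, was detected in 68.8% and 49.5% of rich nuclei. Csf1r was detected in 32.1% and 28.7%, against 28.8% and 32.5% of the macrophages low in both genes, which Csf1r helped to choose. Before thinning, Cd163 had been detected in 55.4% and 65.3%, Stab1 in 90.2% and 76.2% and Csf1r in 66.1% and 55.4% of rich nuclei.

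Transcripts of lymphatic endothelium, platelets and mast cells were few or at 0, and lists of other cell types also gave UMIs. Over all rich nuclei Flt4, Reln and Mmrn1 of lymphatic endothelium were at 0 UMIs in both libraries. In the limited set the 6 lymphatic markers together gave 6 UMIs in the Csf2+/- library and 1 UMI in the Csf2-/- library. That was 16.7 and 4.22 CPM, against 17.5 and 12.4 CPM in the epithelial-marked barcodes. Ppbp, Gp9 and Gp1bb of platelets and Cpa3, Mcpt4, Cma1 and Fcer1a of mast cells were at 0 in the rich nuclei of both. Of the 6 dendritic markers Xcr1, Clec9a, Ccr7 and Cd209a were at 0 in both, but in the limited set the list summed to 100.2 and 80.2 CPM, above the 14.8 and 15.2 CPM of the epithelial-marked barcodes. Of the 5 monocyte and neutrophil markers Ly6c2, S100a8 and S100a9 were at 0 in both, and the list summed to 41.7 and 33.8 CPM against 2.23 and 4.81 CPM. The 8 markers of T, NK and innate lymphoid cells gave 19 and 1 UMIs in the limited set, 52.9 and 4.22 CPM against 5.61 and 11.4 CPM. The 4 B cell markers summed to 97.4 and 80.2 CPM, against 170 and 142 CPM in the epithelial-marked barcodes, with Ms4a1 and Pax5 at 0. Without the deepest droplets, the 7 epithelial markers summed to 326 and 510 CPM, against 1656 and 1947 CPM in the epithelial-marked barcodes. The 7 fibroblast markers summed to 256 and 257 CPM. Schwann markers summed to 91.8 and 114 CPM against 208 and 301 CPM, and mural markers to 33.4 and 46.4 against 113 and 99.3 CPM. Vascular endothelial markers summed to 27.8 and 25.3 CPM against 26.2 and 19.8 CPM. The 6 acinar markers reached at least 4 UMIs in each of the 112 and 101 rich nuclei and summed to 11494 and 12859 CPM. The part of these transcripts in the results was not tested.

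**Figure D3:**
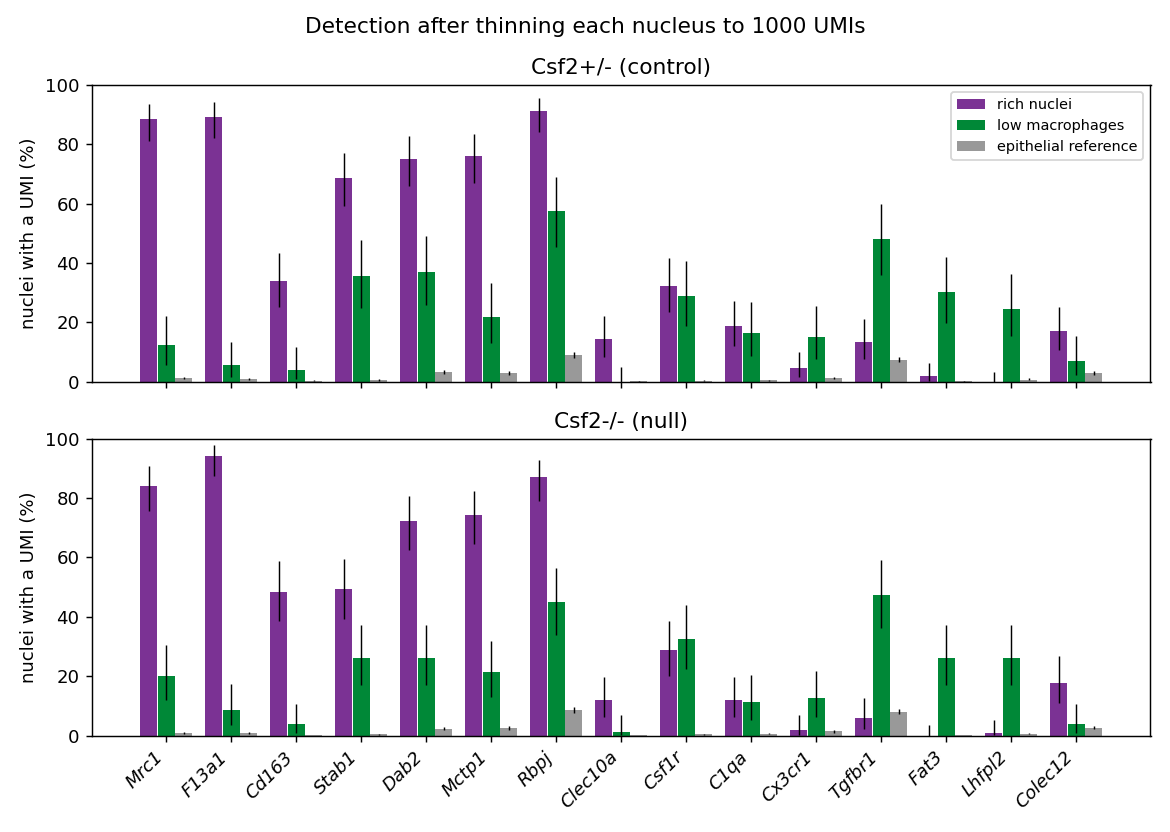
Share of nuclei with at least 1 UMI (y axis, %) after thinning each nucleus to 1000 UMIs, for 15 genes (x axis) in the control (top) and null (bottom) library. Bars show rich nuclei (112 and 101), macrophages low in both rule genes (73 and 80) and epithelial-marked barcodes (3099 and 3066), with exact 95% binomial intervals. Cd163, Stab1, Dab2, Mctp1 and Rbpj are higher in rich nuclei than in low macrophages, and Tgfbr1, Fat3 and Lhfpl2 are lower.

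The other macrophages of the gland gave the nearest comparison. Macrophages low in both rule genes were passing barcodes with a sum of at most 3 and at least 4 UMIs of 10 general macrophage genes (among them Csf1r, Adgre1, Cx3cr1, C1qa, C1qb, C1qc, Tbxas1 and Mpeg1), 73 in the Csf2+/- library and 80 in the Csf2-/- library. Since the rule genes separate the classes, these ratios describe them and are no test. Of 5157 genes with at least 20 UMIs in each library, 28 (0.543%) were at least 4-fold higher and 23 (0.446%) at least 4-fold lower in rich nuclei in both libraries. In the limited set, 29 (0.713%) and 26 (0.64%) of 4065 were. Nothing is read from these shares, since the contrast is that of the rule.

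Some of the higher genes encode endocytic receptors and lectins. The UMI numbers below come from sums of unequal size. In the limited set rich nuclei held 359392 and 237025 UMIs, and low macrophages 177442 and 186218. In the limited set Cd163 had 219 UMIs in control and 190 in null rich nuclei against 8 and 5 in low macrophages, log2 ratios of 3.76 (2.75 to 4.99) and 4.90 (3.65 to 6.54). Clec10a and Mgl2, which encode galactose-type lectins, had 54 and 34 and 47 and 33 UMIs in rich nuclei, against 0 and 1 and 1 and 0 in low macrophages. Timd4, a receptor for phosphatidylserine on dying cells and a marker of long-lived resident macrophages, had 24 and 27 UMIs against 0 and 0. With the 0 set to a floor of 3 counts per library, the log2 ratios were 1.98 and 2.82. The counting intervals had lower ends of 1.57 and 2.42. Lyve1, the hyaluronan receptor of perivascular macrophages, likewise had 28 and 19 UMIs against 0 and 0. Dab2, an adaptor of clathrin-mediated uptake, had 718 and 410 UMIs against 90 and 60, ratios of 1.98 and 2.42. Stab1, which is not among the 15 highest genes, had 374 and 173 against 72 and 53, a ratio of 1.36 in each library.

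Several higher genes have other roles. Rbpj, the DNA-binding partner of Notch, was among the most abundant, at 5696 and 5527 CPM against 1420.2 and 795 CPM, with 2047 and 1310 UMIs and log2 ratios within intervals of 1.81 to 2.20 in the Csf2+/- library and 2.55 to 3.05 in the Csf2-/- library. Mctp1, a membrane protein with C2 domains, had 730 and 478 UMIs against 49 and 54, and Bank1, a scaffold protein best known from B cells, had 155 and 82 against 9 and 2. Slc9a9, an endosomal sodium-proton exchanger, stood at 3495 and 2932 CPM against 1138 and 634 CPM. Samd4, Psd3, Nav1 and Ddx60 completed the 15 genes, with ratios between 1.89 and 3.53 in the limited set, F13a1 (5.45 and 5.97) and Mrc1 (3.68 and 3.75) being the rule's own. Wwp1 took the place of Slc9a9 when the genes were ranked in the limited set.

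Of the 10 genes of the lower side, 8 had at most 6 UMIs in the rich nuclei of each library, while Cadm1 and Tgfbr1 had more. Fat3, an atypical cadherin, had 6 and 0 UMIs in rich nuclei against 92 and 83 in low macrophages. Lhfpl2 had 3 and 2 against 61 and 71, and Fgf13, an intracellular fibroblast growth factor homologue, 2 and 1 against 61 and 70. Cadm1, a cell adhesion molecule, had 42 and 23 against 238 and 275, log2 ratios of -3.52 (-4.03 to -3.04) and -3.93 (-4.61 to -3.31). Tgfbr1, the type I receptor of TGF-beta, had 55 and 19 against 200 and 202, ratios of -2.88 and -3.76. Grap2, Xylt1, Klra2, Cd72 and Ipcef1 had between 0 and 5 UMIs in rich nuclei and between 24 and 51 in low macrophages.

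**Figure D4:**
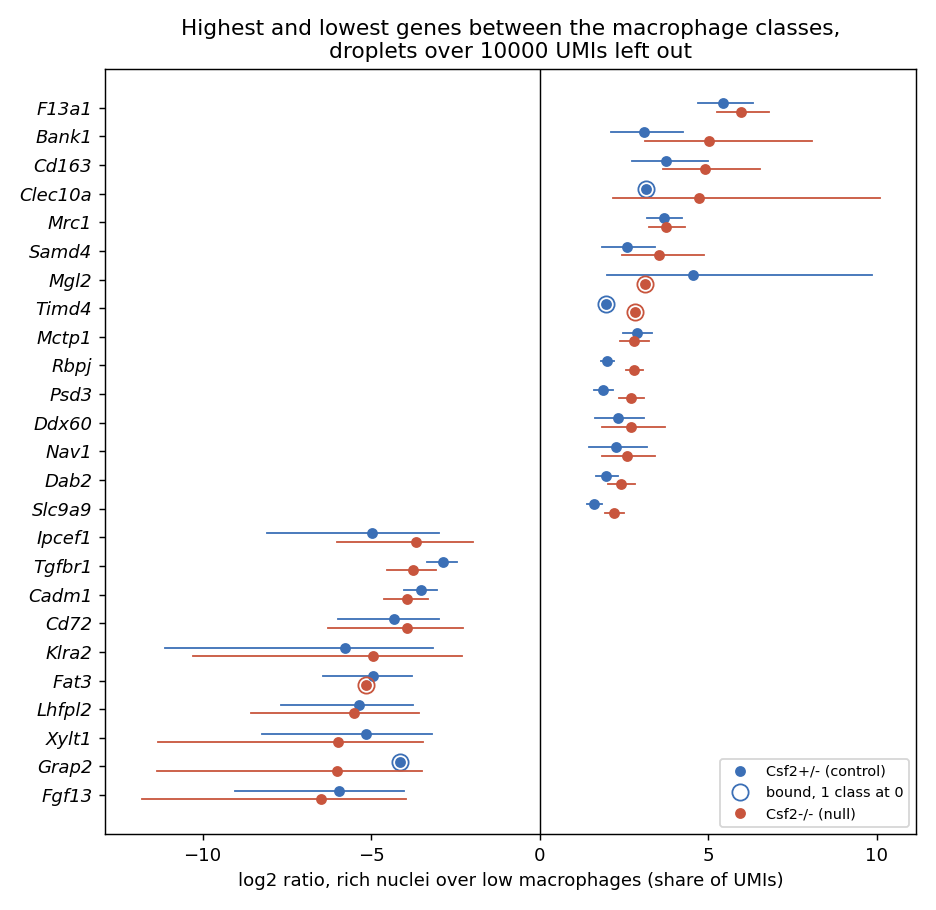
Log2 ratio of rich nuclei over macrophages low in both rule genes (x axis) for the 15 highest and 10 lowest genes (y axis), in the control (blue) and null (red) library without droplets over 10000 UMIs. Points are ratios of the share of UMIs and lines exact 95% counting intervals. Rings mark bounds where 1 class had 0 UMIs. The genes were chosen for lying on the same side of 0 in both libraries, and intervals are widest where a class had few UMIs.

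Gene lists by role are described next, with genes counted by the sign of the ratio in both libraries. Over all 4065 genes of the limited set the median log2 ratios were 0.02 in the Csf2+/- library and -0.02 in the Csf2-/- library. The share of all genes on 1 side in both libraries is not given here, so nothing is read from the list counts. In the limited set, of 10 scavenger and endocytic receptor genes with enough UMIs, 8 were higher in rich nuclei in both libraries, judged by the sign of the ratio alone, and 0 lower, with median log2 ratios of 1.98 and 2.77. Among 9 genes of the LYVE1 and perivascular type 7 were higher. Of these, Igf1 had 126 and 89 UMIs against 20 and 10, and Gas6 87 and 44 against 11 and 6. The 1 lower gene was the integrin gene Itga9 (115 and 31 against 106 and 84), with log2 ratios of -0.90 and -1.79. Of 7 iron and heme genes 5 were higher and 1 lower. Slc40a1, the iron exporter ferroportin, had 49 and 20 UMIs against 0 and 2. Of 7 complement and Fc receptor genes 3 were higher. Of these, Fcgr2b, the inhibitory Fc gamma receptor, had 40 and 20 UMIs against 16 and 3. Its log2 ratios were 0.30 (-0.56 to 1.24) and 2.39 (0.64 to 4.78), so the interval of the Csf2+/- library held 0. The 2 lower genes, C1qa and C1qb, helped to choose the low class, so nothing is read from their side. C1qa had 65 and 29 UMIs against 33 and 26 and log2 ratios of -0.04 and -0.19. The lysosome and lipid genes split 4 higher and 1 lower of 9.

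Several genes of antigen presentation and chemokine signalling, and Csf2ra of the GM-CSF receptor, lay on the other side. H2-Eb1, an MHC class II chain, had 1 and 1 UMI in rich nuclei against 25 and 24 in low macrophages, and 4 of 5 genes of that list were lower. Both chemokine genes with enough UMIs were lower, Cx3cr1 (18 and 9 against 37 and 51), which helped to choose the low class, and Cxcl16 (10 and 3 against 34 and 30). Of 7 efferocytosis genes 4 were lower and 2 higher. Axl, a receptor for Gas6, had 9 and 8 UMIs against 32 and 30, log2 ratios of -2.85 and -2.25. Its relative Mertk had 97 and 78 against 44 and 29, ratios of 0.12 (-0.41 to 0.67) and 1.08 (0.45 to 1.75). The Mertk interval of the Csf2+/- library held 0. Csf2ra had 36 and 20 UMIs against 63 and 39, log2 ratios of -1.83 (-2.46 to -1.21) and -1.31 (-2.17 to -0.50). Csf2rb had 9 and 7 UMIs against 4 and 6, and 2 of the 4 genes of the GM-CSF list with enough UMIs were lower in both libraries and 0 higher. Of 11 identity and transcription factor genes 6 were higher, such as Maf (358 and 214 against 56 and 51) and Runx1, and 4 lower, such as Irf8 (17 and 10 against 31 and 26). Growth factor genes counted 3 higher and 1 lower of 4, cell cycle genes 1 higher of 3, and the immediate early list had only Nr4a2 with enough UMIs, which was neither. No gene of the 11-gene coagulation and fibrinolysis list had enough UMIs.

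Between the genotypes, the rule did not use the contrast, but the deepest null droplet weighed on it. Over all rich nuclei, 296 (4.48%) of 6612 genes with at least 20 UMIs were at least 2-fold higher in the Csf2-/- library and 380 (5.75%) at least 2-fold lower. Scaled by the median log2 ratio of genes with at least 50 UMIs, all rich nuclei gave 438 higher and 255 lower, so the balance of directions followed the scaling. The limited set was not rescaled in this way. The limited set had 159 (3%) of 5307 higher and 240 (4.52%) lower. Of the 12 genes named as highest over all rich nuclei (Ndufa13, Sh3rf2, Jup, Polr2e, G0s2, Fxyd3, Ldb2, Fam122a, Lsamp, Pappa, Cox5a, Dbp), 8 had over 50% of their null UMIs in that 1 droplet, and only Pappa stayed among the 12 highest of the limited set. Jup and Fxyd3 are genes of epithelial cells. The values that follow come from the limited set unless stated.

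Mrc1 and F13a1 are described first, without reading a change from them, since a fixed minimum of 8 UMIs asks for a higher level in the shallower null nuclei. Mrc1 stood at 2454 CPM in the Csf2+/- library and 2384 CPM in the Csf2-/- library, a log2 ratio of null over control of -0.04 (-0.20 to 0.11), and F13a1 at 3450.3 and 5063 CPM, a ratio of 0.55 (0.44 to 0.67). Among markers outside the rule, Cd163 had a ratio of 0.40 (0.11 to 0.68), Csf1r of -0.16 (-0.56 to 0.23) and Colec12 of 0.11 (-0.36 to 0.58). The part of the fixed minimum in these ratios, that of Cd163 among them, was not tested. Rbpj (-0.04), Mctp1 (-0.01) and Zeb2 (-0.01), a factor that keeps macrophage identity, had intervals that held 0. Over all rich nuclei the ratios were -0.70 for Mrc1, -0.12 for F13a1, -0.22 for Cd163 and -0.84 for Csf1r. F13a1 and Cd163 thus changed sign with the droplets over 10000 UMIs, and Mrc1 and Csf1r moved to lower values with them.

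**Figure D5:**
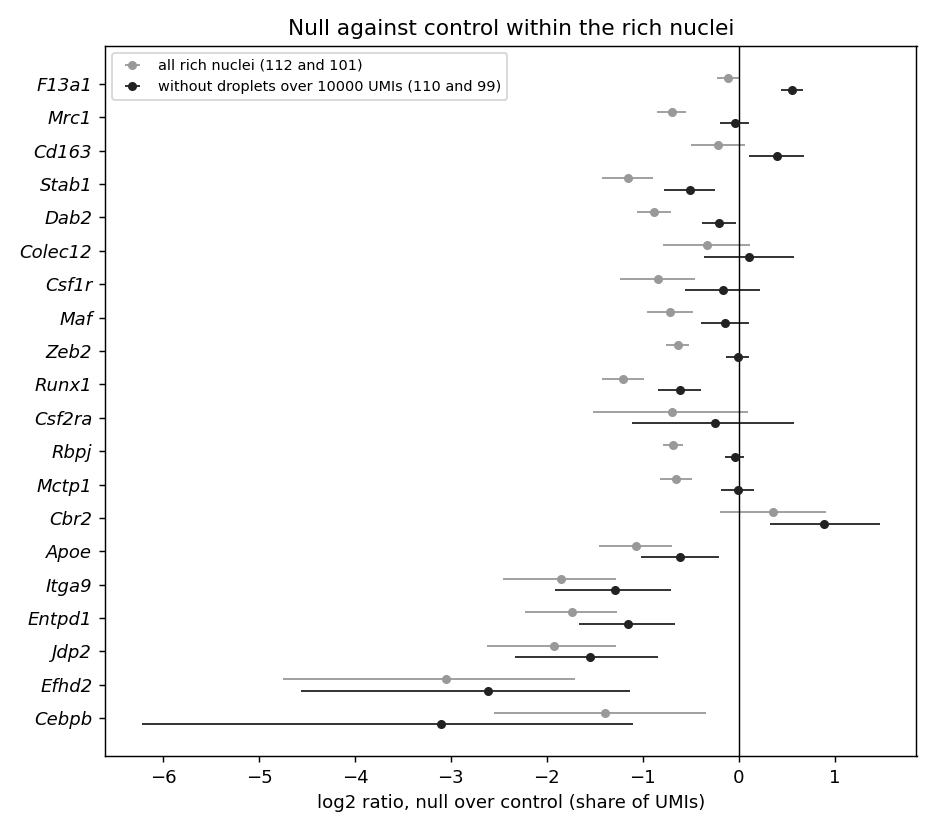
Log2 ratio of null over control in rich nuclei (x axis) for 20 genes (y axis), over all rich nuclei (grey) and without droplets over 10000 UMIs (black), with exact 95% counting intervals. Most grey points lie left of the black ones. Itga9, Entpd1, Jdp2, Efhd2 and Cebpb lie left of 0 in both.

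Lower in null nuclei in both readings were genes of several roles. Stab1 had 374 UMIs in the Csf2+/- library and 173 in the Csf2-/- library, a ratio of -0.51 (-0.78 to -0.25). Runx1, a transcription factor of blood cells, had 552 and 238, a ratio of -0.61 (-0.84 to -0.39), and Apoe, the lipid carrier, 171 and 74, a ratio of -0.61 (-1.02 to -0.21). Itga9 had 115 and 31 UMIs, a ratio of -1.29 (-1.91 to -0.71), and Entpd1, the ATP-degrading ectoenzyme CD39, 155 and 46, a ratio of -1.15 (-1.66 to -0.67). Low macrophages of the same libraries had 106 and 84 UMIs of Itga9 and 59 and 19 of Entpd1, from 177442 and 186218 UMIs in all. Cebpb, a transcription factor, had 26 and 2 UMIs, and Efhd2, a calcium-binding protein, 37 and 4, while low macrophages had 8 and 4 and 17 and 19. Jdp2, a repressor of AP-1, had 89 and 20 UMIs (-1.55, -2.33 to -0.84) and Pde3b, a cyclic nucleotide phosphodiesterase, 99 and 24 (-1.44, -2.15 to -0.79). Whether the genotype ratio differed between rich nuclei and low macrophages was not tested. Gas2l3 (24 and 3), Specc1 (74 and 20), St6gal1 (119 and 41), Stk17b (106 and 35), Rhoh (25 and 5) and Tmem123 (18 and 0) were the other lower genes named over all rich nuclei. Pdgfc, a growth factor for mesenchymal cells, had 41 and 13 UMIs, a ratio of -1.06 (-2.08 to -0.13).

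Genes with higher levels in null nuclei of the limited set included members of the LYVE1 and perivascular list. Cbr2, a carbonyl reductase, had 49 and 60 UMIs, a ratio of 0.89 (0.32 to 1.47), Hpgd, which degrades prostaglandins, 21 and 33 (1.25, 0.42 to 2.12), and Ednrb, an endothelin receptor, 11 and 21 (1.53, 0.42 to 2.73). All 3 belong to that list, in which 2 of 14 genes were at least 2-fold higher and 1 at least 2-fold lower, with a median of -0.04 against -0.08 over all 5307 genes. Over all rich nuclei their ratios were 0.35, 0.64 and 0.88, with intervals that held 0. Cd74, the MHC class II chaperone, had 9 and 19 UMIs. Nav1, one of the genes higher than in low macrophages, had 136 and 131 (0.55, 0.19 to 0.90). The highest of all genes were Tmem117 (8 and 28), Cacnb4 (12 and 33) and Hpse2 (8 and 24), followed by Fam222b, Pappa, Pde1c, Ablim1, Arfip2, Uchl3, Slit2, Lsm7 and Runx2. Epithelial-marked barcodes had higher levels of Tmem117 (370 and 258 CPM against 22.3 and 118) and Cacnb4 (399 and 306 against 33.4 and 139). The same held in both libraries for Hpse2, Pde1c, Ablim1, Slit2 and Runx2. Fam222b, Pappa, Arfip2, Uchl3 and Lsm7 were higher there than in rich nuclei in the Csf2+/- library only. The part of transcripts from other cells in these ratios was not tested. When nuclei with at least 4 UMIs of the markers of 1 other cell class were also left out (acinar markers not counted, 92 control and 88 null nuclei kept), the ratio was -2.32 for Hpse2, -1.52 for Pappa and -0.52 for Pde1c, so those 3 genes changed sign.

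GM-CSF receptor and response genes were thinly covered. Csf2ra had 36 UMIs in control and 20 in null rich nuclei, 100.2 and 84.4 CPM, a log2 ratio of -0.25 (-1.11 to 0.58). Csf2rb had 9 and 7. Csf2rb2 had 10 and 1, but it is a near copy of Csf2rb, so that the division of reads between them is uncertain. Of 15 genes in the list 7 had at least 20 UMIs over both libraries in all rich nuclei, with a median of 0.07. Of these 7, 1 was at least 2-fold lower in the Csf2-/- library. In the limited set 4 genes had enough UMIs, none of them 2-fold apart, with a median of -0.29. Pparg, a factor that GM-CSF induces in alveolar macrophages, had 21 and 7 UMIs (-0.98, -2.46 to 0.30), Stat5b 103 and 54 (-0.33, -0.83 to 0.16), and Itgax 1 and 0. A 2-fold lower level in the Csf2-/- library was within the intervals of Csf2ra and Pparg and was not detectable for them at this depth. The interval of Stat5b, which covers counting error only, held no 2-fold difference.

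The medians of the other lists lay on both sides of the median of all genes, -0.08. Medians in the limited set were 0.07 for 10 scavenger receptor genes, -0.16 for 13 identity and transcription factor genes, -0.26 for 11 complement and Fc receptor genes, -0.14 for 6 efferocytosis genes, 0.02 for 13 lysosome and lipid genes, 0.30 for 8 iron genes, 0.30 for 3 antigen presentation genes, -0.38 for 5 growth factor genes, -0.60 for 3 chemokine genes and -0.32 for 4 cell cycle genes. Over all rich nuclei, where the median of all genes was -0.09, these lists had other medians. They were -0.54 for scavenger receptor, -0.71 for identity, -0.85 for complement and -0.55 for efferocytosis genes. Lysosome genes had -0.63, iron genes 0.02, antigen presentation genes 0.27, growth factor genes -0.88, chemokine genes -1.25 and cell cycle genes -0.29. In the limited set 3 immediate early genes had enough UMIs, the NR4A nuclear receptor genes, with a median of -1.72. Nr4a1 had 25 and 5 UMIs, Nr4a2 70 and 23, and Nr4a3 18 and 3. Over all rich nuclei Nr4a1 had 31 and 33 UMIs and Nr4a2 102 and 103, ratios of 0.04 and -0.03, so the lower values were not seen with the droplets over 10000 UMIs included.

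The nuclei also varied among themselves. In the limited set, 32 of 110 control nuclei (29.1%, 20.8 to 38.5) and 22 of 99 null nuclei (22.2%, 14.5 to 31.7) had a UMI of Timd4 or Lyve1. They were deeper, with median depths of 3575 and 2919.5 UMIs against 2584 and 1977, and the part of depth in this split was not tested. They had F13a1 at 4259.8 and 6443 CPM against 3055 and 4502 CPM, and Egfr, the epidermal growth factor receptor, at 586 and 847 CPM against 257 and 475 CPM. Rbpj stood at 8002 and 6326 CPM against 4571 and 5202 CPM in the same split. Mrc1 differed less, at 2554 and 2834 CPM against 2405 and 2201 CPM.

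A few nuclei carried transcripts of cell division. At least 4 UMIs of 13 cell cycle genes, among them Top2a, Mki67 and Diaph3, were found in 11 of 110 control nuclei (10.0%, 5.10 to 17.2) and 4 of 99 null nuclei (4.04%, 1.11 to 10.0). The intervals overlap, and whether this share differed between the genotypes was not tested. These nuclei were deeper, with median depths of 4271 and 2883.5 UMIs against 2653 and 2037 in the others, and the part of depth in this count was not tested. In them the median F13a1 share of the rule genes was 45.5% in the Csf2+/- library and 27.4% in the Csf2-/- library, against 55.6% and 72.7% in the others. Their Dab2 level was 881 and 805 CPM, against 2159 and 1776 CPM. With 4 null nuclei these null values rest on few cells.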

How the data were processed

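The authors deposited 1 matrix of raw UMI counts per gene and barcode for each library. Per the file headers it was written by Cell Ranger 7.0.0, and per the submitters' processing notes the build was GRCm39. Per the labels' protocols, libraries were made with a 10x Chromium 3' kit (v2). Gene annotation and the counting of introns are not given in the sources used here. The files pair 26033 gene identifiers with symbols, used as given.

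From the counts, nuclei were taken by the rule in the text. UMIs were summed per class and library and scaled to CPM of that sum. Log2 ratios have exact conditional binomial intervals, shares exact (Clopper-Pearson) intervals, sums exact Poisson intervals, all at 95%. Only the ratio intervals were tested on simulated data. Those were Poisson counts without variation between nuclei, so the test does not cover such variation. A class at 0 was set to a floor of 3 counts per library. Genes needed 20 UMIs.

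The text names Mrc1, F13a1, Cd163, Colec12, Csf1r and the Csf2 genes. By interval bound nearest 0, it also names the 15 highest and 10 lowest genes of rich over low macrophages, and the 12 highest and 12 lowest of null over control. From 14 lists, 2 to 4 members each were planned, by most UMIs in rich nuclei or the ratio farthest from 0. Some lists have fewer members named. Mitochondrial, ribosomal protein, sex-linked and unnamed genes and the 100 most abundant genes of secretory barcodes were left out. A few genes of these lists are not reported here. Other genes, such as Egfr, Fcgr2b and the highest genes of the limited set, were chosen after their values were seen. The members, markers and lists were chosen with earlier results of these data known. Settings on thresholds, depth, scaling, free RNA and mixed nuclei were varied. The tools were SciPy 1.17.1, NumPy 2.4.6, pandas 2.3.3, Matplotlib 3.10.9 and Python 3.11.15.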

Additional observations from a re-analysis of the deposited data

Results flagged for a closer look

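Hpgd, which encodes the prostaglandin-degrading enzyme 15-hydroxyprostaglandin dehydrogenase, was lower in rich nuclei than in macrophages low in Mrc1 and F13a1 in the control library and higher in the null library. Over all rich nuclei the log2 ratio of rich over low macrophages was -1.31 in the control (23 against 28 UMIs) and 1.42 in the null library (37 against 8 UMIs), and in the limited set it was -1.21 and 1.89. It stands out because the 2 libraries moved in opposite directions. The difference between the libraries was not tested, since each genotype has 1 library.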

How the results depend on the processing

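No paired analysis was possible because each genotype has 1 library. The log2 ratio of the share of rich nuclei among passing barcodes, -0.79, ran from -1.07 to -0.53 when the rule's threshold, depth, thinning or a secretory limit of 20% was varied. It was -0.13 with a secretory limit of 35%, -0.27 over all barcodes and -0.014 over barcodes with at least 1000 UMIs. The difference in the F13a1 part ran from 9.35 to 10.3 percentage points. The 296 genes at least 2-fold higher in null nuclei became 156 with a secretory limit of 20%, 503 with free RNA subtracted, 159 in the limited set, 149 without nuclei that held markers of another class (with or without the droplets over 10000 UMIs), 1122 with no minimum count and 72 at 50 UMIs. The 380 lower genes became 236 with the total taken without the 100 most abundant secretory-barcode genes, 240 in the limited set, 218 without nuclei with markers of another class (in both versions), 1511 with no minimum and 134 at 50 UMIs. For null over control, 6612 genes were tested over all rich nuclei and 5307 in the limited set. That number is not given for the other settings, so their counts cannot be compared as shares. Fewer genes are tested at a higher minimum, and for the rest the cause was not tested. Counts for rich over low macrophages stayed between 17 and 29. Removal of nuclei with acinar markers was not run, since each rich nucleus reaches 4 such UMIs.

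Of the null over control values of named genes under these settings, 644 stayed within their spread, 167 moved and 31 changed sign. For rich over low, 809 stayed, 88 moved and 4 changed sign. F13a1, -0.12 over all rich nuclei, was 0.071 with a threshold of 6, 0.57 with a secretory limit of 20%, 0.030 with the total without secretory genes, 0.018 with median scaling, 0.0080 with free RNA subtracted, 0.55 in the limited set and 0.58 without nuclei with markers of another class (in both versions). With a secretory limit of 20%, Mrc1 was 0.016, Igf1 0.17, Wwp1 0.12, Zeb2 0.055, Psd3 0.011, Mctp1 0.0011 and Lsamp -0.37. In the limited set Igf1 was 0.10 and Lsamp -0.17. Without nuclei with markers of another class, in both versions, Clec10a was 0.020, Diaph3 0.024, Hpse2 -2.32, Ldb2 -1.10, Pappa -1.52, Pde1c -0.52 and Sh3rf2 -0.84. For rich over low macrophages without such nuclei, Pde1c in the control was 0.95 and Polr2e and Sh3rf2 in the null library -0.49. With at least 6 general macrophage UMIs for the low class, Pde1c in the control was 0.45. Depth limits genes of few UMIs: a median rich nucleus held 2833 (control) or 2095 (null) UMIs, and for Csf2rb, with 9 and 7, a 2-fold difference could not be seen.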
